A study of Saccharomyces cerevisiae with 30 samples.

Results

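Peroxisome and fatty acid oxidation genes are described here in Saccharomyces cerevisiae, by their RNA in nitrogen-starved and in rich medium and by the transposon insertions upstream of them. The members were all genes that the deposited expression table names PEX with a number, 26 in all, and 14 further genes of fatty acid activation, breakdown and oleate control chosen by name. Together they are 40 of the 6932 genes in the table. The study made 1 polyA RNA library from cells in nitrogen-starved medium and 1 from cells in rich medium, and 28 calling card libraries, each of 1 transcription factor linked to filamentous growth. In calling cards, a fusion partner of the factor recruits the retrotransposon Ty5, and new insertions therefore gather around the places the factor binds. The strain background named in the design text was Σ1278b, in which cells form filaments under nitrogen shortage. Per the labels, the calling card cells grew in synthetic medium with little ammonium, Ty5 was induced in 2% galactose, and insertions were recovered from pooled colonies that were His+ and resistant to FOA. The 2 RNA libraries carry the same text, and their carbon source, RNA preparation and read depth are not given in the sources used here. A library of Ty5 without a fused factor was not analysed here, so each factor was set against the 27 other factors.

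In yeast, fatty acids are broken down in the peroxisome, an organelle bounded by a single membrane that imports its enzymes already folded. The PEX genes encode peroxins, which build the membrane, import the enzymes and set the organelle's size and number. Many genes of the pathway are known to be repressed by glucose and induced by oleate, through the paired activators Oaf1 and Pip2 and through Adr1.

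The calling card libraries held 401017 insertions supported by 62462318 reads, with 2836 insertions in the smallest library (Rtg1), a median of 12128.5 and 41619 in the largest (Phd1). The label of the nitrogen-starved RNA library was checked on 18 genes known to be repressed by good nitrogen sources. Of these, 17 reached 5 RPKM in either medium, and all 17 were at least 2-fold higher in nitrogen-starved medium, with GAP1, the general amino acid permease, at 860 RPKM in nitrogen-starved and 11.3 RPKM in rich medium. No library had a replicate, so no value has a spread between replicates and the RNA values carry no test.

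The comparison of media asked which genes of the pathway differ in RNA level between nitrogen-starved and rich medium. Each medium had 1 library and the carbon source is not given, so nitrogen, carbon source and growth state cannot be told apart. At least 2-fold higher in nitrogen-starved than in rich medium were 6 of the 7 enzymes of fatty acid breakdown, both subunits of the fatty acid transporter, the acyl-CoA synthetase FAA2 and the division factor PEX11. The remaining enzyme, DCI1, and the other peroxins were short of 2-fold. Change is given as log2((starved + 1)/(rich + 1)) of the deposited RPKM, which are reads scaled to gene length and library total. The added 1 makes changes of low genes look smaller than they are. All 40 members reached 5 RPKM in at least 1 medium. Of these, 10 were at least 2-fold higher in nitrogen-starved medium, against 10.8% of all 6122 genes past the same minimum, and 0 were at least 2-fold lower, against 4.05% of all genes. The median log2 change was 0.37 over the members and 0.01 over all genes. A total of 34 members had a value above 0, as did 51.0% of all genes. Of the 26 PEX genes 1 was at least 2-fold higher (median log2 change 0.25), and of the 14 other members 9 were (median 1.45). In bulk RNA, more cells expressing a gene and more RNA per cell cannot be told apart.

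**Figure D1:**
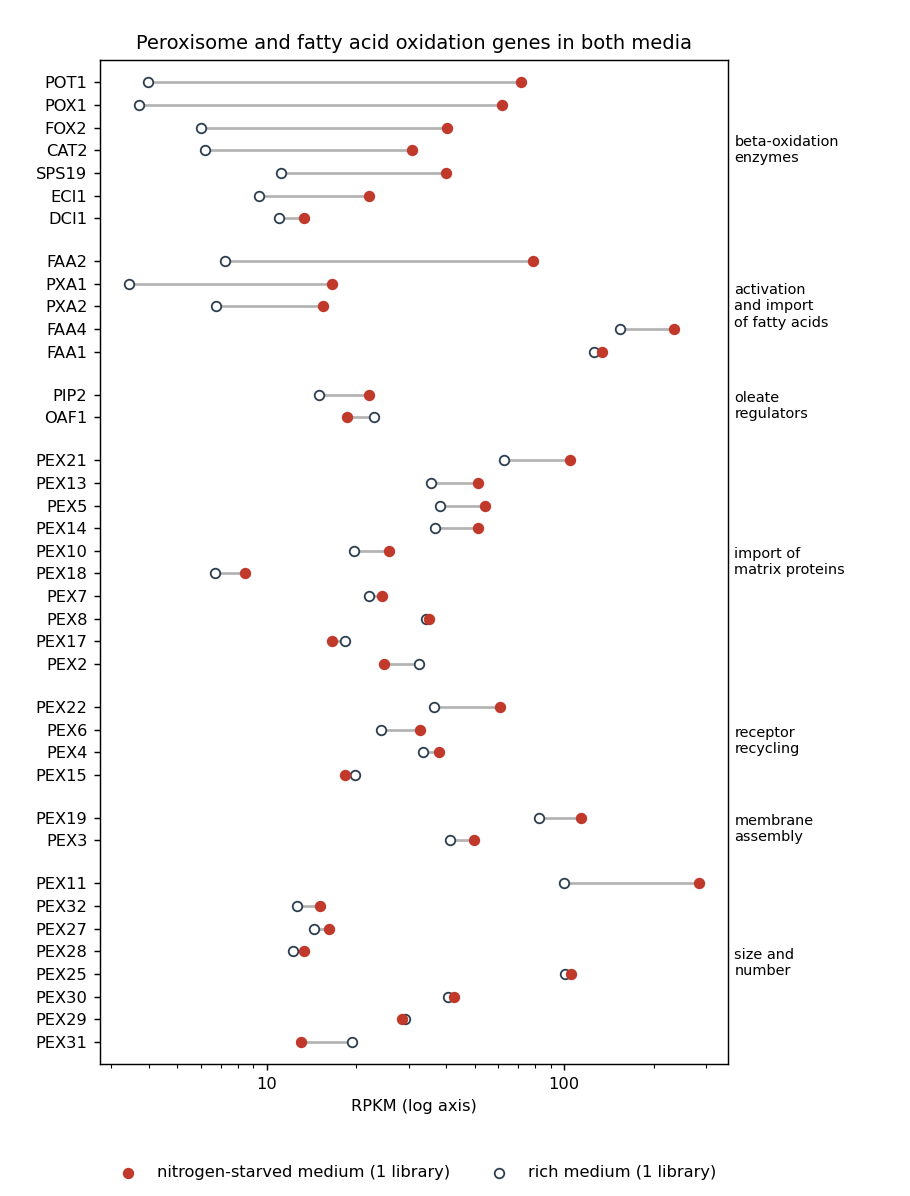
RPKM of 38 of the members in nitrogen-starved and in rich medium, on a log axis, with 1 RNA library per medium and members grouped by role. POT1 and POX1 lie farthest apart between the media, at 71.5 and 61.8 RPKM in nitrogen-starved medium against 3.98 and 3.70 RPKM in rich medium.

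The beta-oxidation enzymes held the members with the largest changes. POT1, the thiolase of the last step of the cycle (chromosome 9, positions 23463 to 24716 as listed by the authors, complement strand), had 71.5 RPKM in nitrogen-starved and 3.98 RPKM in rich medium, an 18.0-fold ratio and the 45th highest log2 change (3.87) of the 6122 genes. POX1, the acyl-CoA oxidase that opens the cycle (chromosome 7, 106506 to 108752, Watson strand), had 61.8 RPKM in nitrogen-starved and 3.70 RPKM in rich medium, a log2 change of 3.74. FOX2, the enzyme of both middle steps, had 40.3 RPKM in nitrogen-starved and 6.02 RPKM in rich medium, a log2 change of 2.56. The enzymes of the core cycle were thus among the lowest members in rich medium and near or above the members' median of 33.8 RPKM in nitrogen-starved medium. CAT2, the carnitine acetyltransferase that prepares acetyl units for export, had 30.7 RPKM in nitrogen-starved and 6.19 RPKM in rich medium, a log2 change of 2.14.

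Unsaturated fatty acids need auxiliary enzymes, and these changed less. SPS19, the dienoyl-CoA reductase, had 40.1 RPKM in nitrogen-starved and 11.1 RPKM in rich medium, a log2 change of 1.76. ECI1, the enoyl-CoA isomerase, had 22.0 RPKM in nitrogen-starved and 9.43 RPKM in rich medium, a log2 change of 1.14. Its relative DCI1 had 13.4 RPKM in nitrogen-starved and 11.0 RPKM in rich medium, a log2 change of 0.26, and was the member of the 7 beta-oxidation enzymes that did not reach 2-fold. The median log2 change of these 7 genes was 2.14.

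Fatty acids enter the peroxisome either as acyl-CoA through the transporter made of Pxa1 and Pxa2, or as free acids that Faa2 activates inside. FAA2 had 78.5 RPKM in nitrogen-starved and 7.24 RPKM in rich medium, a log2 change of 3.27. PXA1 had 16.5 RPKM in nitrogen-starved and 3.43 RPKM in rich medium, a log2 change of 1.99. PXA2 had 15.4 RPKM in nitrogen-starved and 6.75 RPKM in rich medium, a log2 change of 1.08. The subunits of the transporter therefore had similar levels in nitrogen-starved medium and differed more in rich medium. In rich medium PXA1 lay under the minimum of 5 RPKM, and each level comes from 1 library, so this difference is uncertain. The acyl-CoA synthetases that activate fatty acids outside the peroxisome were abundant in both media and short of 2-fold. FAA4 had 235 RPKM in nitrogen-starved and 154 RPKM in rich medium (log2 change 0.60), and FAA1 had 134 RPKM in nitrogen-starved and 126 RPKM in rich medium (log2 change 0.09). The coordinates of FAA2 and SPS19 are merged with those of overlapping genes in the authors' table, so reads of those genes and of their neighbours may not have been separated. Without the 4 members with merged coordinates (FAA2, SPS19, PEX14 and PEX2), 8 of 36 were at least 2-fold higher. With 5 RPKM added in place of 1, ECI1 and PXA2 came to 0.91 and 0.80 and also left 8.

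**Figure D2:**
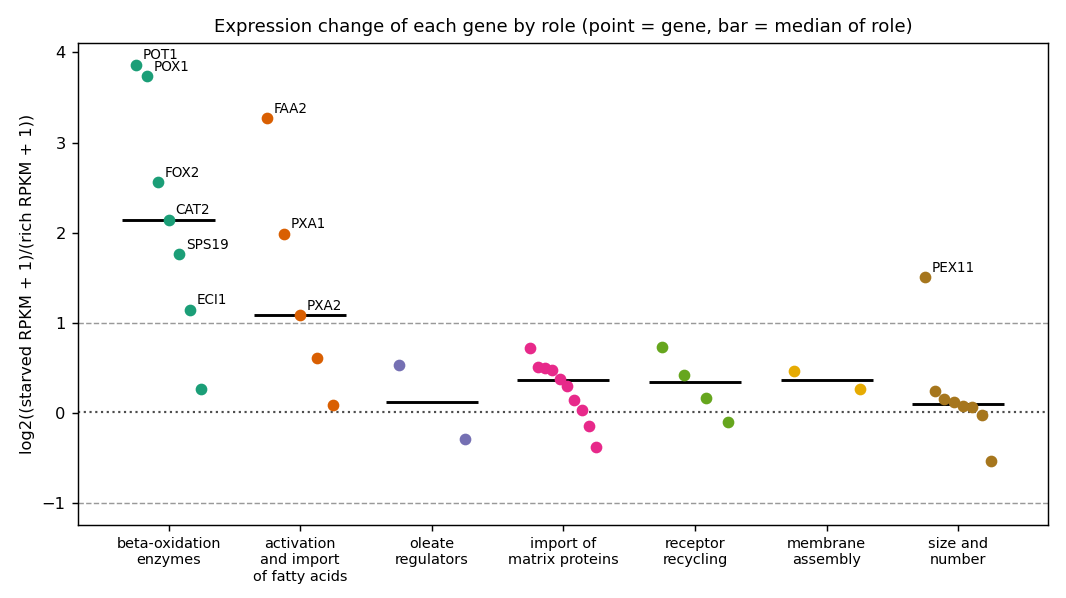
Log2 change, log2((starved RPKM + 1)/(rich RPKM + 1)), of 38 members by role, with 1 RNA library per medium, bars at the median of all members of a role and a dashed line at 2-fold. Beta-oxidation enzymes (median 2.14) and genes of activation and import (median 1.08) lie above the groups of peroxins, whose medians run between 0.09 and 0.37.

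The activators of the oleate response differed little between media at the level of RNA. PIP2 had 22.0 RPKM in nitrogen-starved and 14.9 RPKM in rich medium, a log2 change of 0.53. OAF1 had 18.5 RPKM in nitrogen-starved and 22.9 RPKM in rich medium, a log2 change of -0.29. Neither reached 2-fold, and their changes had opposite signs.

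Among the peroxins, PEX11, which elongates peroxisomes before they divide, stood apart. PEX11 (chromosome 15, 46543 to 47253, complement strand) had 285 RPKM in nitrogen-starved and 99.97 RPKM in rich medium, a log2 change of 1.504, and was the member with the highest RPKM in nitrogen-starved medium. Its relatives were short of 2-fold. PEX25 had 106 RPKM in nitrogen-starved and 100.4 RPKM in rich medium, a log2 change of 0.07, and PEX27 had 16.1 RPKM in nitrogen-starved and 14.4 RPKM in rich medium, a log2 change of 0.15. The other genes of peroxisome size and number encode membrane proteins that limit or regulate them. PEX28 and PEX29 had 13.4 and 28.6 RPKM in nitrogen-starved medium, against 12.3 and 29.1 RPKM in rich medium. PEX30, PEX31 and PEX32 had 42.5, 13.0 and 15.1 RPKM in nitrogen-starved medium, against 40.7, 19.3 and 12.6 RPKM in rich medium. PEX31 had the lowest log2 change of all members, -0.54, and PEX30 and PEX32 lay at 0.06 and 0.24.

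None of the 11 genes for the import of matrix proteins reached 2-fold. The receptor PEX5, which carries enzymes that end in a C-terminal peroxisomal signal, had 54.3 RPKM in nitrogen-starved and 38.1 RPKM in rich medium, a log2 change of 0.50. PEX7, the receptor for the N-terminal signal found on the thiolase, had 24.4 RPKM in nitrogen-starved and 22.1 RPKM in rich medium, a log2 change of 0.14. PEX18 and PEX21, the interchangeable partners of Pex7, differed in level. PEX21 had 105 RPKM in nitrogen-starved and 63.0 RPKM in rich medium, a log2 change of 0.72. PEX18 had 8.44 RPKM in nitrogen-starved and 6.68 RPKM in rich medium, a log2 change of 0.30, and its RPKM in nitrogen-starved medium was the lowest of all members. The docking genes PEX13, PEX14 and PEX17 had log2 changes of 0.51, 0.47 and -0.14, and PEX8, which links docking to the ligases, had 0.03. PEX10 and PEX2, RING-type ubiquitin ligases that mark the receptors for recycling, had log2 changes of 0.38 and -0.38.

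The receptors are taken out of the membrane again by a ubiquitin-conjugating enzyme with its anchor and by an ATPase complex with its own. The anchor PEX22 had 61.0 RPKM in nitrogen-starved and 36.4 RPKM in rich medium, a log2 change of 0.73, the highest among the PEX genes after PEX11. The enzyme PEX4 had a log2 change of 0.17, the ATPase PEX6 had 0.42, and its anchor PEX15 had -0.10. PEX19, the receptor for membrane proteins, and PEX3, its dock, had log2 changes of 0.46 and 0.27. The median change was 0.37 for matrix import, 0.34 for receptor recycling and 0.36 for membrane assembly, near one another and above that of all genes.

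Other genes of the pathway were taken from lists chosen by function, with earlier results of these data known. They are therefore no independent support for the changes of the members. Over all 6122 genes past the minimum of 5 RPKM, 10.8% were at least 2-fold higher in nitrogen-starved medium and 4.05% lower. Of 13 other peroxisomal and carnitine genes in the table, 5 were at least 2-fold higher in nitrogen-starved medium and 0 lower. These were TES1, the peroxisomal thioesterase (log2 change 2.71), CRC1, the carnitine carrier of mitochondria (1.75), IDP3, the peroxisomal isocitrate dehydrogenase (1.66), CTA1, the peroxisomal catalase (1.66), and PCS60, a peroxisomal AMP-binding protein (1.14). The coordinates of TES1 are merged with those of an overlapping gene in the authors' table, so its RPKM may hold reads of both. In rich medium CRC1 and IDP3 had 2.41 and 4.98 RPKM, under the minimum, which they passed through the nitrogen-starved library only. Of 7 glyoxylate and gluconeogenic genes past the minimum, 3 were at least 2-fold higher, SFC1 (3.55), PCK1 (1.75) and ICL1 (1.69), and 1 was at least 2-fold lower, CIT2, the peroxisomal citrate synthase. CIT2 had 14.2 RPKM in nitrogen-starved and 91.2 RPKM in rich medium, a log2 change of -2.60. SFC1 and PCK1 had 1.03 and 3.04 RPKM in rich medium, also under the minimum. Of 6 other regulators past the minimum, 2 were at least 2-fold higher. ADR1, a zinc finger activator of peroxisomal genes, had 124 RPKM in nitrogen-starved and 8.61 RPKM in rich medium, and CAT8, an activator of gluconeogenic genes, had 24.6 RPKM in nitrogen-starved and 1.38 RPKM in rich medium. All 7 genes of fatty acid synthesis, like most of all genes, were short of 2-fold, with log2 changes between -0.72 and -0.06.

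The calling card comparison asked which of the 28 factors leave insertions upstream of these genes. An excess of 1 library by Fisher's exact test was called at 7 of 40 members (17.5%), against 21.3% of all genes, a share near the background. Among them were the acyl-CoA synthetase FAA4, the isomerase relative DCI1 and the ligase genes PEX2 and PEX10. Insertions were counted in the 1200 bp upstream of each start codon. The 40 windows held 2186 insertions, or 5.45 per 1000 insertions of all libraries, with an exact Poisson 95% interval of 5.225 to 5.685 that covers counting error only. This was 45.5 insertions per kb, against 55.8 per kb in the windows of all 6444 genes in both deposited tables. The median window held 33 insertions among the members and 30 among all genes. No insertion was listed in 40.8% of the 1120 factor-member pairs and in 45.6% of all pairs, so a single pair was often at the limit of the depth.

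Insertions were concentrated on 4 members. FAA4 had 294 insertions, with 0, 7.5 and 49 as the lowest, median and highest count of the 28 libraries. FAA1 had 264 (lowest 1, median 7.5, highest 38), PEX25 had 241 (0, 6.5 and 31) and PEX2 had 159 (0, 5 and 22). These 4 held 43.8% of the members' insertions, and the other 36 members held 12 to 73 each with a median of 30.5. The fewest were upstream of PEX7 with 12, PEX19 with 14, and PEX5 and PEX11 with 15 each, and PEX7 and PEX5 had none in 18 and 19 libraries.

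**Figure D3:**
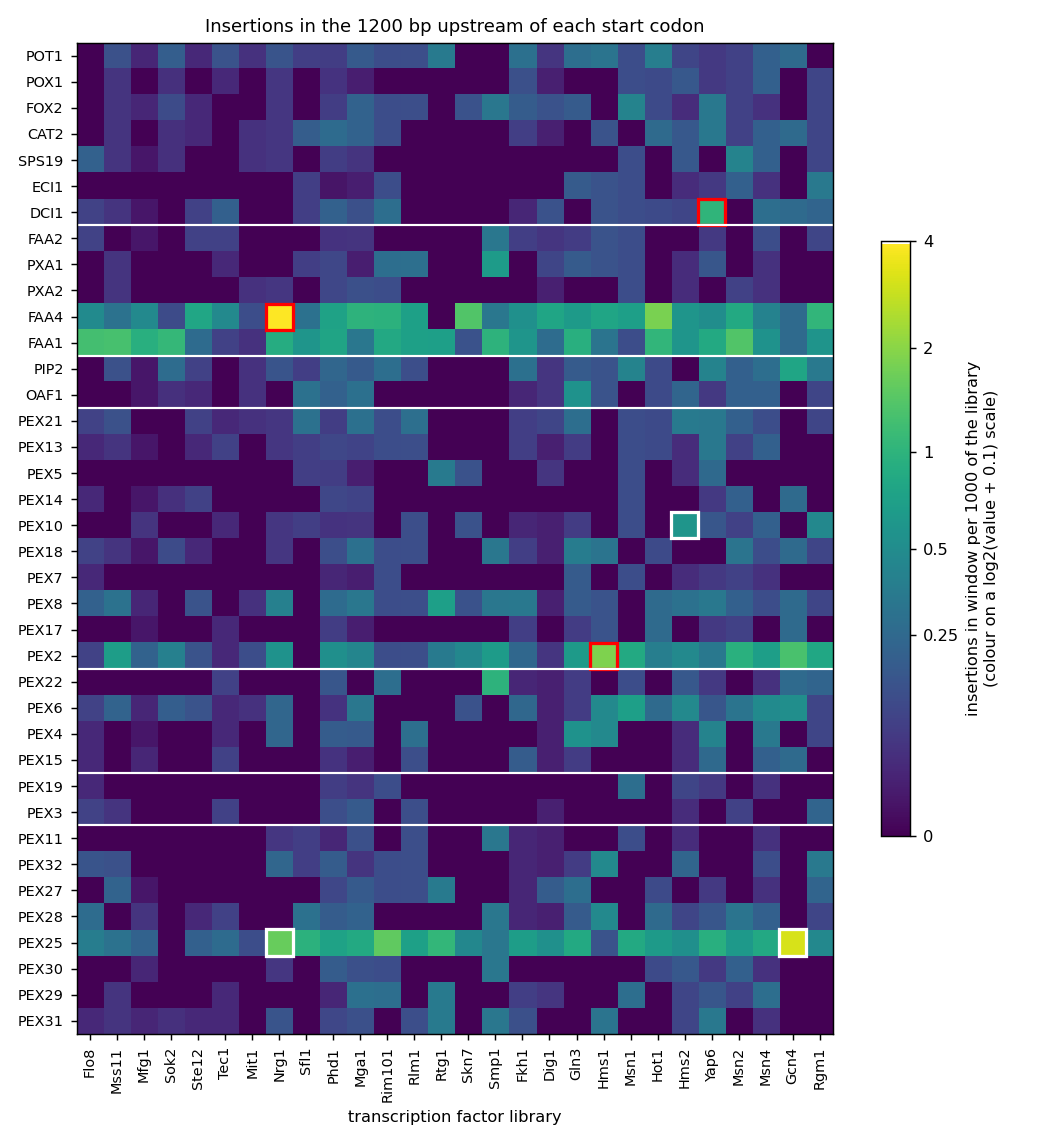
Insertions per 1000 of each library in the 1200 bp upstream of 38 members, with members down the page, the 28 calling card libraries across, red frames for pairs called by both the deposited p-value and the exact test, and white frames for pairs called by the exact test alone. FAA4, FAA1, PEX25 and PEX2 have insertions in nearly all libraries, and the Nrg1 library at FAA4 (3.93 per 1000) is the highest value.

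Across the libraries the members' share was highest for Nrg1, with 9.55 insertions per 1000, and lowest for Mit1, with 1.19 per 1000. Without the window of FAA4 the Nrg1 value was 5.62 per 1000. These values count repeated lines, which were 5.93% of the Nrg1 library and 27.4% of the Mit1 library. The authors' deposited table gave a p-value at or under 0.001 to 3 factor-member pairs, 0.268% of 1120, against 0.879% of all factor-gene pairs. Fisher's exact test, one-sided and with Benjamini-Hochberg adjustment over all 6444 genes and 28 factors, called 8 pairs at an adjusted p under 0.05, 0.714%, against 1.0% of all pairs. The 8 pairs comprise the 3 pairs of the deposited table. All these tests compare 1 library with others and not conditions.

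Nrg1, a zinc finger repressor known to act on glucose-repressed genes, gave the pair with the most insertions, upstream of FAA4 (chromosome 13, 764610 to 766694, Watson strand). The Nrg1 library had 49 insertions there (exact Poisson 95% interval 36.3 to 64.8), or 3.93 per 1000. The 27 other libraries had 0 to 1.81 per 1000 with a median of 0.589, and the highest of them, Hot1, had 14 insertions. The Nrg1 library thus lay above each of the others. The odds ratio against the 27 others pooled was 6.26 with an adjusted p of 6.5e-19 by Fisher's exact test. The authors' deposited table gives p = 1.78e-15. Of the 49, 39 lay in the step from 601 to 800 bp upstream of the start codon. They stood at 38 distinct positions, 20 of which other libraries listed too, with a median of 90.5 reads per position against 6 in the whole Nrg1 library. All 49 also lay in the window of YMR244C-A, the divergent neighbour, at a median of 288 bp upstream of it, and the authors' deposited table gives this gene p = 2.11e-15 for Nrg1. YMR244C-A had 342 RPKM in nitrogen-starved and 164 RPKM in rich medium, a log2 change of 1.05, and FAA4 had 0.60. The coordinates of YMR244C-A are merged with those of YMR245W in the authors' table, so its RPKM may hold reads of both, and its start codon, and with it the distance, was placed by name order. With windows of 600 bp, 10 of the insertions were left and the call by Fisher's exact test was lost (adjusted p = 0.51), as it was with windows that ended at the nearest listed gene, YMR245W, 623 bp upstream (11 insertions, adjusted p = 0.36).

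Yap6, a basic leucine zipper factor, was called at DCI1 (chromosome 15, 667190 to 668005, complement strand), the enoyl-CoA isomerase relative that was short of 2-fold between media. The Yap6 library had 12 insertions there (exact Poisson 95% interval 6.20 to 21.0), or 1.02 per 1000. The 27 other libraries had 0 to 0.279 per 1000 with a median of 0.106, all below Yap6. The odds ratio was 9.22 with an adjusted p of 1.5e-05 by Fisher's exact test. The authors' deposited table gives p = 0.000236. Of the 12 insertions 9 lay within 200 bp of the start codon. The 12 stood at 10 distinct positions, 4 of which other libraries listed too. The median was 8 reads per position, against 18 in the whole Yap6 library. With only insertions of at least 2 reads, 8 were left (Fisher's exact test, adjusted p = 0.011). All 12 also lay in the window of the divergent LAS17, an actin assembly factor with 53.3 RPKM in nitrogen-starved and 47.2 RPKM in rich medium, at a median of 623 bp upstream of it. LAS17 was itself called for Yap6 by Fisher's exact test (adjusted p = 2.7e-05) and by the authors' deposited table (p = 0.000236).

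**Figure D4:**
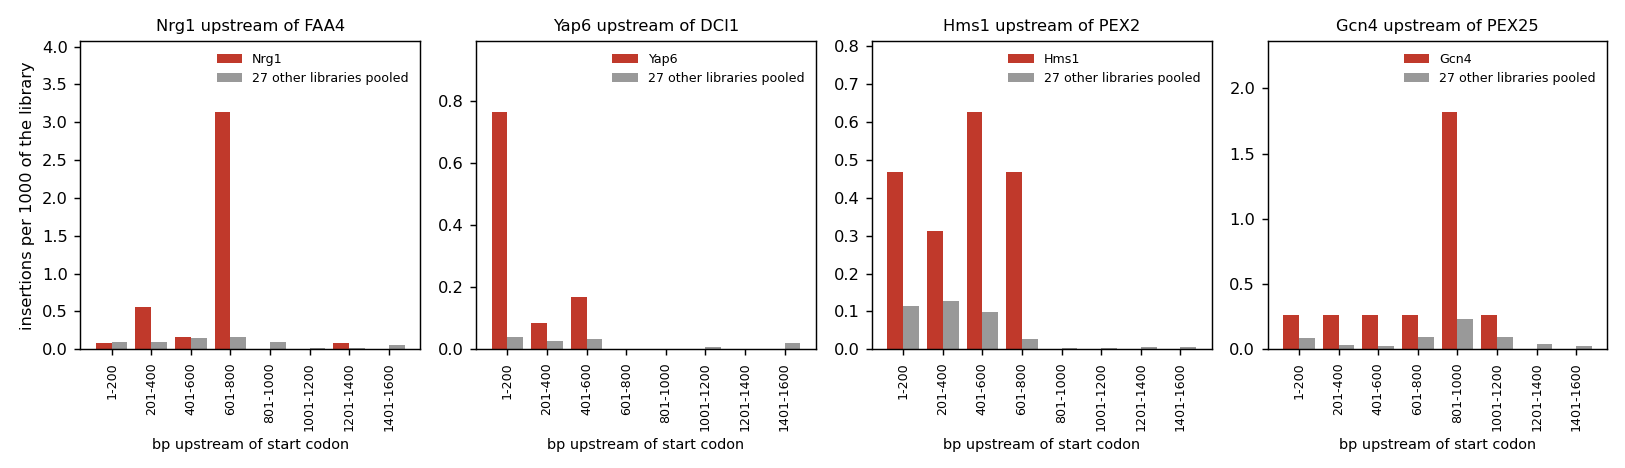
Insertions per 1000 of the library in steps of 200 bp upstream of FAA4, DCI1, PEX2 and PEX25, for the named factor and for the 27 other libraries pooled. The Nrg1 insertions at FAA4 stand mainly in the step of 601 to 800 bp (39 of 49), and those of Yap6 at DCI1 in the 200 bp nearest the start codon (9 of 12).

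Hms1, a helix-loop-helix factor, was called at PEX2, a ligase gene of peroxisomal import (chromosome 10, start codon at 38543, Watson strand, placed within a merged span). The Hms1 library had 12 insertions, or 1.88 per 1000. The 27 other libraries had 0 to 1.296 per 1000 with a median of 0.401, so Hms1 was above all of them. The odds ratio was 5.05 with an adjusted p of 0.0021 by Fisher's exact test. The authors' deposited table gives p = 0.000393. Counted once per position the 12 insertions became 9 and the adjusted p of the exact test was 0.14, and the call was lost too with windows of 600 bp (0.066) and windows that ended at the nearest gene (0.076). The window overlapped that of OPT1, an oligopeptide transporter gene with 6.23 RPKM in nitrogen-starved and 26.9 RPKM in rich medium, and shared 9 of the 12 insertions with it. The other 3 lay inside OPT1, which was not itself called for Hms1 (Fisher's exact test, adjusted p = 0.43).

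The pairs at PEX10 and PEX25 were called by Fisher's exact test and not by the authors' deposited table. At PEX10, also a ligase gene, the Hms2 library had 10 insertions, or 0.589 per 1000, against 0 to 0.463 per 1000 in the 27 others (odds ratio 8.38, adjusted p = 0.00049, p = 0.00108 in the authors' deposited table). None of its 9 positions was listed in another library, and 9 of the 10 insertions also lay in the window of AKR1, a palmitoyltransferase gene on the other strand. AKR1 was itself called for Hms2 by Fisher's exact test (adjusted p = 0.001) and not by the authors' deposited table (p = 0.00374).

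PEX25 was called for 2 factors. The Gcn4 library, of the activator of amino acid synthesis genes, had 12 insertions, or 3.11 per 1000 (odds ratio 5.41, Fisher's exact test, adjusted p = 0.001, p = 0.00714 in the authors' deposited table). The Nrg1 library had 20, or 1.61 per 1000 (odds ratio 2.83, Fisher's exact test, adjusted p = 0.012, p = 0.0995 in the authors' deposited table). Gcn4 and Nrg1 were the highest libraries at this gene, and for each of them the 27 other libraries had a median of 0.633 per 1000. Of the Gcn4 insertions 7 lay 801 to 1000 bp upstream of PEX25, and all insertions of both libraries lay also in the window of the divergent CAR1, the arginase gene. CAR1 was itself called by Fisher's exact test for Gcn4 (adjusted p = 0.00099) and Nrg1 (adjusted p = 0.011). The authors' deposited table did not call it for them (p = 0.00511 and 0.0681). CAR1 had 295 RPKM in nitrogen-starved and 101 RPKM in rich medium, a log2 change of 1.54, while PEX25 had 0.07. With windows of 600 bp, which lie nearer PEX25, 3 Gcn4 and 1 Nrg1 insertions were left and neither pair was called by Fisher's exact test (adjusted p = 0.61 and 1.0). With windows of 800 bp the adjusted p of the exact test was 0.49 for Gcn4 and 0.11 for Nrg1, and with each position counted once it was 0.056 for Nrg1.

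The insertions at the called members could in most cases not be given to 1 gene. The windows of 29 members overlapped the window of another gene, 28 of them on the opposite strand, and 38 reached into a listed gene. Which gene of such a pair the insertions belong to was not tested.

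The 10 members that were at least 2-fold higher in nitrogen-starved medium had 15 to 52 insertions each, and no library had more than 11 at any of them. No factor was called at these genes, in 0 of 280 pairs by the authors' deposited table (0.879% of all pairs) and in 0 of 280 by Fisher's exact test (1.0% of all pairs). With the merged coordinates as listed, the window of FAA2 moves and the exact test calls FAA2 for Smp1, from 3 insertions (adjusted p = 0.0057). The placed window holds 1 Smp1 insertion, and the authors' deposited table gives this pair p = 0.718. A deposited p-value under 0.05 stood in 4 of the 280 pairs (1.43%), against 2.33% of all factor-gene pairs, and an unadjusted p under 0.05 by Fisher's exact test in 13 (4.64%), against 6.72% of all pairs. The lowest p-value of the authors' deposited table among these pairs was 0.00366, of Phd1 at PXA1, and the lowest adjusted p of Fisher's exact test was 0.19. POT1 had 52 insertions with 0, 1.5 and 6 as the lowest, median and highest count of the libraries, POX1 had 23 (0, 1 and 3), and PEX11 had 15 (0, 0 and 4). At such counts a small excess in 1 library was not detectable, and 44.3% of these pairs had no insertion. The other 30 members held all 3 pairs of the deposited table (0.357% of 840) and all 8 by Fisher's exact test (0.952%), and the difference between the 2 sets of members was not tested.

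**Figure D5:**
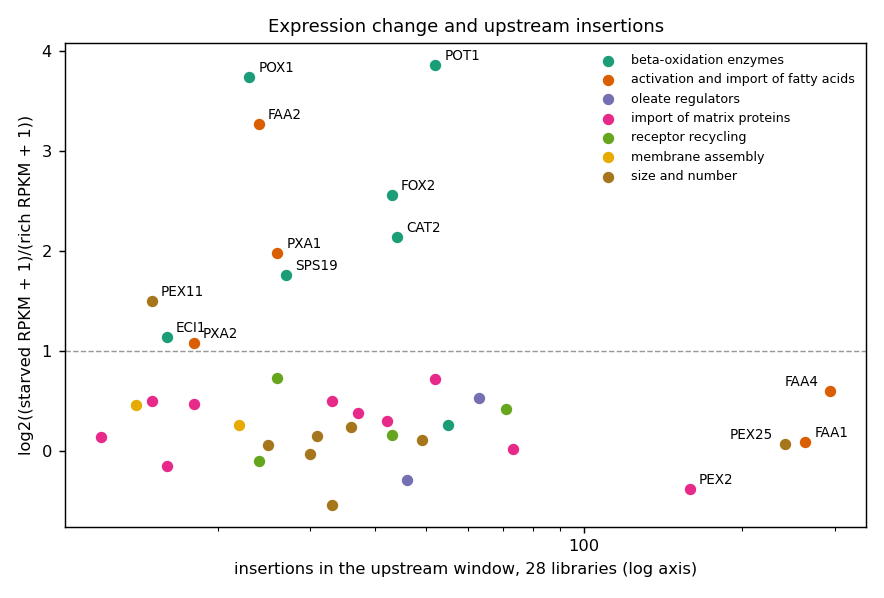
Log2 change between media (nitrogen-starved over rich, 1 RNA library each) against the insertions upstream of 38 members summed over the 28 libraries, on a log axis, with colours for roles. The 10 members past 2-fold (dashed line) have 15 to 52 insertions, and the 4 with most insertions, FAA4, FAA1, PEX25 and PEX2, lie below 2-fold.

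Among the other genes of fatty acid and acetyl unit metabolism and their regulators, ADR1 had the most insertions, 514 over the 28 libraries. The authors' deposited table calls it for Tec1 (p = 3.55e-15), a filamentation activator, and for Dig1 (p = 8.55e-15), an inhibitor of its partner Ste12. The Tec1 library had 72 insertions upstream of ADR1 and the Dig1 library 135. The odds ratios against the 27 others were 3.28 and 5.21, with adjusted p-values of 1.6e-13 and 1.5e-42 by Fisher's exact test. Repeated lines made up 25.4% of the Tec1 and 26.2% of the Dig1 library, and the exact test counts each of them. Calls at the genes of this paragraph were not repeated with each position counted once, and genes that share their windows were not examined. FAA3, the remaining long-chain acyl-CoA synthetase of the family of FAA1 and FAA4, is called in the authors' deposited table for Mfg1 (p = 1.28e-05, 33 insertions) and Mit1 (p = 6.88e-09, 24 insertions). PNC1, a nicotinamidase found in peroxisomes, is called there for the stress factor Msn2, with 15 insertions. CIT2 is called there for Rtg1, the retrograde response activator, whose library had 82 insertions, or 28.9 per 1000, upstream of it. Further calls came from Fisher's exact test alone, at genes that were at least 2-fold higher in nitrogen-starved medium and at others. In the higher group, TES1 was called for Phd1 (10 insertions, adjusted p = 0.021), PCK1 for Mga1 (12 insertions, adjusted p = 0.01) and SFC1 for Rgm1 (11 insertions, adjusted p = 0.038), each by the exact test. The window of TES1 rests on merged coordinates. The others were MLS1 for Msn1 (adjusted p = 0.012) and the fatty acid synthesis genes FAS1 for Smp1 (0.02), OLE1 for Hms2 (0.024) and FEN1 for Msn4 (0.0053), each by the exact test. In all, the exact test called 23.1% of 13 other peroxisomal and carnitine genes and 14.3% of 7 regulators, against 21.3% of all genes. It called 50.0% of 8 glyoxylate and gluconeogenic genes and 42.9% of 7 fatty acid synthesis genes. Their median windows held 114.5 and 89 insertions, against 30 over all genes.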

How the data were processed

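The members and lists were chosen with earlier results of these data known. Each deposited insertion list holds 1 insertion per line as chromosome, position and supporting read count (whole numbers). Lines were counted as listed. Lines that repeat a position of the same library made up 0.378% (Mga1) to 27.6% (Mfg1) of a library. They were over 15% in 10 libraries, and the exact test takes each as a separate insertion. The deposited expression table gives RPKM computed by the authors, per the file headers, and a further deposited table gives the authors' p-values per gene and factor; its test, and the genome build, aligner and counting, are not given in the sources used here. RNA depth is unknown. Coordinates are the authors', from 1.

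Insertions were counted in 1200 bp upstream of each start codon, the window that held no insertion where the deposited p-value was 1 in the largest share of genes (median 97.6% per factor). The authors' table gives overlapping genes 1 merged span (1307 genes); start codons were placed inside it from RefSeq lengths (R64 table) or name order where possible, after the files had been seen. Fisher's exact test (scipy 1.17.1, Python 3.11.15) set each factor against the 27 other libraries. It was tested on simulated independent Poisson counts. These hold no repeated lines, so they cannot show how often the test calls falsely in these libraries. Expression used a pseudocount of 1 RPKM, a minimum of 5 RPKM in 1 medium and a 2-fold threshold. Genes named with values were those past 2-fold, those called, those with most or fewest insertions, paralogues, and other pathway genes past 2-fold or called; the remaining members are given by their log2 change. Replicates were absent, so p-values measure counting error in single libraries, which PCR and pooled colonies can exceed. Promoter and protein sequences were not used here. Of the 40 members, 2 are not reported by name here and are left out of the figures, though the counts and medians over members include them.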

Additional observations from a re-analysis of the deposited data

How the results depend on the processing

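No paired analysis was possible because each group holds 1 library. With pseudocounts of 0.1 or 5, no minimum, a minimum of 20 RPKM, centred values or merged genes left out, 8 to 10 members were at least 2-fold higher and 0 lower, with a median change of 0.32 to 0.47. Over all 5190 to 6932 genes in these settings, 556 to 688 were at least 2-fold higher and 202 to 263 lower. The deposited p-value called 3 pairs, against 1 at 0.0001, 9 at 0.01 and 1 with adjustment within each factor. Over all 180432 factor-gene pairs it called 1586, against 1280, 2472 and 1438 in the same order. Fisher's exact test called 8 pairs, against 4 with 600 bp windows, 5 with windows that end at the nearest gene, 5 with each position counted once and 5 at an adjusted p under 0.01. Over all 180432 pairs the exact test called 1812, against 1281, 1376, 1348 and 1181 in the same order, so calls fell there too. The members' 5.45 insertions per 1000 became 3.54 (600 bp), 4.25 (800 bp), 3.62 (windows ending at the nearest gene), 6.06 (positions once) and 5.80 (positions left out where another library has at least 10 times more reads). For Nrg1 at PEX25 the excess was gone with 600 bp windows and with windows ending at the nearest gene (Fisher's exact test, adjusted p = 1.0 in both), since most of its insertions lie farther upstream. Yap6 at DCI1 and Hms2 at PEX10 kept their calls in all 10 alternatives tried. Listed coordinates, an alternative chosen after seeing the data, gave 9 pairs and 5.32 per 1000, and put FAA2 at 9 insertions in place of 24, with a call for Smp1 (exact test, adjusted p = 0.0057), the only call of the exact test at the 10 members past 2-fold in the settings tried; at 0.01 the deposited p-value calls 1 of them, PXA1 for Phd1. Exact-test pairs gained elsewhere were Phd1 at PEX30 (600 and 800 bp windows, windows ending at the nearest gene), Mga1 at PEX29 (windows ending at the nearest gene, adjustment within factor) and Flo8 at FAA1 (positions left out). Depth limits the small libraries most, since many of their windows hold no insertion.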

Other observations

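Peroxin genes that the authors' table lists by systematic name only, and that were not counted as members, were short of 2-fold between media. PEX34 (YCL056C) had 124 RPKM in nitrogen-starved and 116 RPKM in rich medium, and PEX35 (YGR168C) had 15.4 RPKM in nitrogen-starved and 14.6 RPKM in rich medium. PEX9 (YMR018W), an import receptor known to be induced by oleate, had 1.33 RPKM in nitrogen-starved and 1.31 RPKM in rich medium, under the minimum used, and 92 insertions over the 28 libraries. The authors' deposited table calls PEX34 for Dig1 and PEX9 for Sok2, and calls 0.879% of all factor-gene pairs. Fisher's exact test called 4 of the 84 pairs of these 3 genes, against 1.0% of all factor-gene pairs. PEX34 was called for Dig1 by Fisher's exact test (13 insertions, adjusted p = 0.00031), and PEX9 for Sok2 (34 insertions, adjusted p = 2.9e-22). PEX35 was called by Fisher's exact test for Fkh1 and Hms2 (8 insertions each, adjusted p = 0.014 and 0.0045).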
